A study of Mus musculus with 24 samples.

Results

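The 33 genes described here encode the machinery that folds proteins in the endoplasmic reticulum, disposes of those that fail to fold, and senses the load. They were taken by name from a list of 33 symbols, all 33 had an annotated probe set on the array, and they are 33 of 18194 genes tested. This list and the neighbouring lists were chosen with earlier results of these data known. Shares of members set against all genes are therefore descriptions and no independent support. For 23 of them several probe sets were annotated, and the probe set with the highest mean over 24 arrays stood for the gene. Liver RNA came from male mice of the F1 hybrid strain B6C3F1 and was hybridised to 24 Affymetrix 430 2.0 arrays. DEHP (diethylhexylphthalate), a plasticiser and rodent non-genotoxic carcinogen that activates the nuclear receptor PPARα in rodent liver, was given by oral gavage at 1150 mg/kg/day in 10 ml/kg, every 24 h for 3 days, and control mice received the same volume of corn oil. The mice were 7 to 10 weeks old on arrival, were fed ad libitum, and the labels name no engineered allele. Livers sampled at 2, 8, 24 and 72 h gave 8 groups of 3 arrays. The design text names 6 mice, and nothing says that the 3 arrays of a group are separate animals, so p-values measure only the spread between these arrays, which may be technical. The hour of day of sampling and the interval since the last dose are not given in the sources used here.

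The question of the comparison was what DEHP does to the liver at each time, against the vehicle at the same time. Values are log2 signals, so a difference of -1 is a halving of signal, and levels of different probe sets cannot be set against each other. A difference (DEHP minus corn oil, with the SE of the limma fit, 3 arrays in each group) passed the test at a Benjamini-Hochberg adjusted p under 0.05 over 18194 genes, and "rose" and "fell" are kept for those. The 8 measured of 9 hepatocyte markers averaged 13.01 to 13.28 on every array. In bulk tissue, fewer cells of a type and less RNA per cell cannot be told apart. Some arrays stood apart on lists of other cell types. Relative to the mean over 24 arrays, 12 exocrine pancreas genes averaged 2.92 on DEHP 2 h replicate 1, 1.78 on corn oil 72 h replicate 1, 1.63 on corn oil 2 h replicate 2 and 1.39 on DEHP 72 h replicate 1, against 0.78 or less on the others. Corn oil 72 h replicate 1 was also high in immediate-early genes (2.12) and acute phase genes (2.11). The control probe sets at the 3′ and 5′ ends of Actb, whose difference is an index of RNA integrity, differed by 1.46 on the log2 scale on corn oil 8 h replicate 2, against 0.82 or less elsewhere.

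Proteins that enter the endoplasmic reticulum are held by chaperones such as Hspa5 (BiP) and acquire disulfide bonds from protein disulfide isomerases, and failed clients are pulled back to the cytosol for the proteasome. When unfolded protein accumulates, the sensors IRE1 (Ern1), PERK (Eif2ak3) and ATF6 start the unfolded protein response. IRE1 splices Xbp1 mRNA into a form that encodes an active transcription factor, ATF6 is cut into another, and PERK slows translation while favouring ATF4. Hepatocytes secrete most plasma proteins and use this machinery heavily even when no stress is imposed.

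Promoters are shown because cleaved ATF6 and spliced XBP1 act on short elements that many of these genes share. The RefSeq table (GRCm38.p6) held the window from 250 bases before to 50 bases after the start for 29 of 33 members; Atf6, Hyou1, Manf and Derl1 were not matched. The endoplasmic reticulum stress element ERSE, searched as CCAAT, 9 bases of any kind and CCACG, was found on either strand in 9 of 29 (31%), against 0.137% of the 27025 genes in the table. The shorter ERSE-II, searched as ATTGG, 1 base of any kind and CCACG, was found in 2 of 29 (6.9%), against 0.0444% of all. No window of a member held both, and together 11 of 29 (37.9%) held a match, against 0.181% of all genes. By role these were 8 of 13 chaperones and folding enzymes and 3 of 6 degradation factors, with none among 4 sensors and transcription factors, 5 PERK/ATF4 targets and Sec61b. A match is a description of letters and no shown site.

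Among members with a match, the 4 with the largest changes that passed the test at some time are printed 5′ to 3′, all on the + strand, with the fixed letters of the element in capitals. Creld2 at chr15:88819496-88819645 carries ERSE on the opposite strand, from 126 to 108 bases before the start. Herpud1 at chr8:94386279-94386428 carries ERSE-II from 52 to 42 bases before it, Dnajb11 at chr16:22857833-22857862 carries ERSE-II from base 8 to base 18 after it, and Hspa5 at chr2:34771940-34772089 carries ERSE from 65 to 47 bases before it.
Creld2: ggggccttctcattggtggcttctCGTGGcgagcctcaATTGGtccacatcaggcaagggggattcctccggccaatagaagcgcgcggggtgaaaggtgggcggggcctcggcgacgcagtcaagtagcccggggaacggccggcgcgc
Herpud1: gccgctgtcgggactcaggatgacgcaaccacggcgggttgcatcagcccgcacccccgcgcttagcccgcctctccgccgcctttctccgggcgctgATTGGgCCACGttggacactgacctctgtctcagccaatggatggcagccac
Dnajb11: tgtgatgtccccggcggcgATTGGcCCACG
Hspa5: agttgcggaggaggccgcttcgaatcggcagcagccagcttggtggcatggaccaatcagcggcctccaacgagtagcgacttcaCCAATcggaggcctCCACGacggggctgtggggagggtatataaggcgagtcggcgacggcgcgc

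At 72 h 13 of 33 members fell with DEHP and 0 rose, against 3.05% of all genes that fell and 1.13% that rose. All genes include many dim ones, whereas 32 of the members had a mean signal above the median gene. In a fit of the 10916 genes above the 40th percentile of mean signal, 16 members fell, against 6.44% of those genes. The difference was below 0 for 31 of 33 members (57.7% of all genes), and the median difference was -0.44 (-0.03 over all genes). All 3 DEHP arrays lay below all 3 corn oil arrays in 27 of 33 members, against 18.1% of all genes. By role, 6 of 15 chaperones and folding enzymes fell (median -0.55), 2 of 7 degradation factors (median -0.34), 3 of 5 sensors and transcription factors (median -0.46) and 2 of 5 PERK/ATF4 targets (median -0.35). Sec61b, a subunit of the channel through which new chains enter, had a difference of -0.23 ± 0.14 (SE, adjusted p = 0.367). At 8 h 5 of 33 fell (2.86% of all genes) and 0 rose (1.28%), and at 2 h and 24 h 0 passed (0.83% and 0.297% of all genes).

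**Figure D1:**
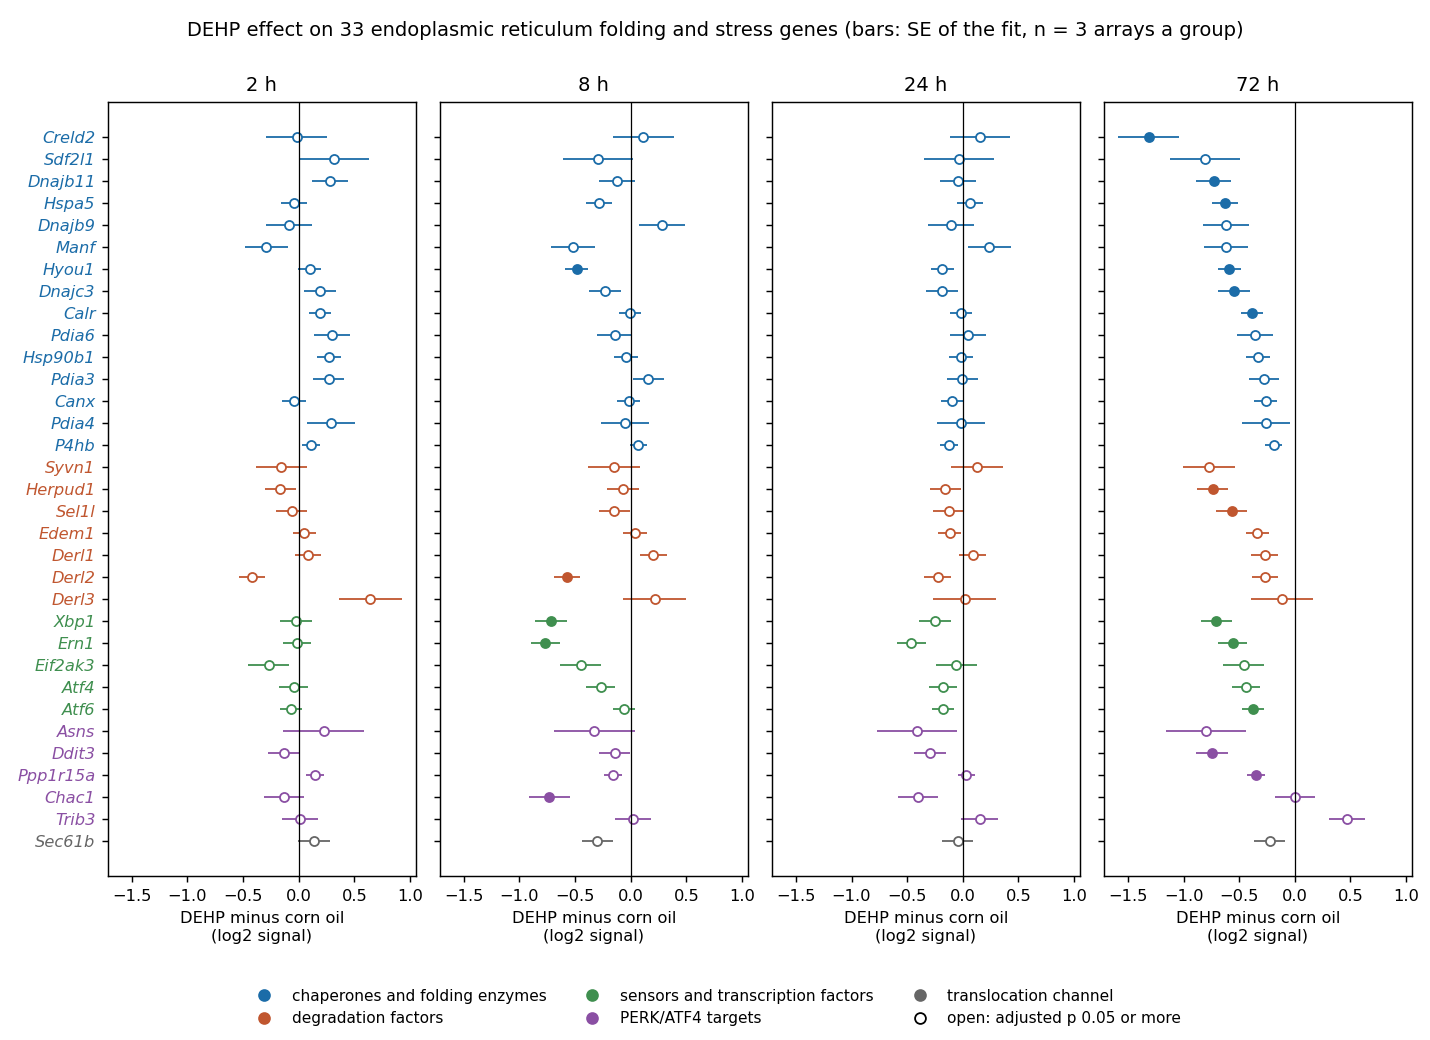
Each point is the difference DEHP minus corn oil (log2 signal, x axis) of 1 of the 33 genes (rows, coloured by role) at 2, 8, 24 or 72 h, with the SE of the fit as a bar and 3 arrays in each group; filled points have an adjusted p under 0.05. At 72 h all but Trib3 (0.47) and Chac1 (0.00) lie left of 0, and 13 points are filled; at 8 h 5 are filled, at 2 h and 24 h none.

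Among chaperones at 72 h, Creld2, a secreted disulfide-exchange protein, had the largest fall. Its log2 signals were 9.89, 10.42 and 10.54 in corn oil and 9.25, 8.97 and 8.68 with DEHP. The groups did not overlap, and the difference was -1.31 ± 0.27 (adjusted p = 0.00903), a signal that fell by 59.8%. Dnajb11, a co-chaperone of BiP, read 10.41, 10.64 and 10.70 in corn oil and 9.90, 9.78 and 9.88 with DEHP, a difference of -0.73 ± 0.16 (adjusted p = 0.0135). The 3 DEHP arrays lay close together and well under the lowest control. Hspa5, the main chaperone of the compartment and a repressor of the sensors when free, read 12.54, 12.66 and 12.77 in corn oil and 12.02, 12.09 and 11.98 with DEHP. Its signal fell by 35.2% (difference -0.63 ± 0.12, adjusted p = 0.00431), again with no overlap. Hyou1, a large chaperone that exchanges the nucleotide of BiP, read 10.81, 10.95 and 11.15 in corn oil and 10.39, 10.33 and 10.42 with DEHP (difference -0.59 ± 0.10, adjusted p = 0.00289). Its 3 DEHP arrays were nearly equal (SD 0.048), and all lay under the lowest control.

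Dnajc3 (p58IPK), a co-chaperone that also inhibits PERK, read 10.68, 10.91 and 10.95 in corn oil and 10.19, 10.33 and 10.36 with DEHP (difference -0.55 ± 0.14, adjusted p = 0.0323). Calr (calreticulin), a lectin chaperone for glycoproteins, read 12.98, 13.05 and 13.15 in corn oil and 12.64, 12.64 and 12.75 with DEHP. Its fall was the smallest of the 6 chaperones that passed (-0.39 ± 0.10, adjusted p = 0.0312). The other 9 did not pass, and their differences ran from -0.81 for Sdf2l1 to -0.19 for P4hb. Sdf2l1, a partner of BiP, read 9.38, 9.57 and 9.73 in corn oil and 8.83, 8.59 and 8.84 with DEHP (-0.81 ± 0.31, adjusted p = 0.138). Dnajb9 and Manf each had a difference of -0.62 (adjusted p = 0.0872 and 0.0748), Hsp90b1 (GRP94) of -0.33 (adjusted p = 0.0843). All DEHP arrays lay below the controls in 8 of these 9, against 18.1% of all genes, Pdia6 being the exception. The disulfide isomerases Pdia3, Pdia4, Pdia6 and P4hb and the lectin chaperone Canx all had differences between -0.36 and -0.19, with adjusted p from 0.144 to 0.515.

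Of the degradation factors, Herpud1 and Sel1l fell at 72 h. Herpud1, which gathers the retrotranslocation complex at the membrane, read 12.62, 12.92 and 12.79 in corn oil and 12.17, 12.14 and 11.81 with DEHP. All DEHP arrays lay below the controls, and its signal fell by 40% (difference -0.74 ± 0.14, adjusted p = 0.00535). Sel1l, the adaptor of the ubiquitin ligase HRD1, read 10.30, 10.80 and 10.84 in corn oil and 10.12, 10.04 and 10.08 with DEHP (difference -0.57 ± 0.14, adjusted p = 0.0249). The DEHP arrays were tight, and corn oil replicate 1 was the control nearest to them. Syvn1, which encodes HRD1 itself, had a larger difference but also a larger spread. It read 10.59, 11.31 and 11.29 in corn oil and 10.53, 10.19 and 10.16 with DEHP, and did not pass (-0.77 ± 0.23, adjusted p = 0.0586). Edem1, which hands misfolded glycoproteins to this route, had -0.34 ± 0.10 (adjusted p = 0.0652). The derlins, membrane components of the same route, had -0.27 (Derl1), -0.27 (Derl2) and -0.12 (Derl3), with adjusted p of 0.186 or more.

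Of the sensors and transcription factors, Xbp1, Ern1 and Atf6 fell at 72 h. Xbp1 read 12.12, 11.83 and 11.98 in corn oil and 11.19, 11.23 and 11.40 with DEHP. The groups lay far apart, and the signal fell by 38.6% (difference -0.70 ± 0.14, adjusted p = 0.00756); the array does not tell spliced from unspliced Xbp1 mRNA in this summary. Ern1 read 10.23, 10.25 and 10.38 in corn oil and 9.79, 9.64 and 9.76 with DEHP (difference -0.56 ± 0.13, adjusted p = 0.0191). Atf6 read 8.787, 9.194 and 8.997 in corn oil and 8.578, 8.778 and 8.502 with DEHP, where the highest treated array nearly reached the lowest control (difference -0.37 ± 0.10, adjusted p = 0.0346). Atf4, the factor downstream of PERK, had no overlap but did not pass (-0.44 ± 0.13, adjusted p = 0.0528). Eif2ak3 had overlapping groups and a difference of -0.46 ± 0.19 (adjusted p = 0.155).

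The PERK/ATF4 targets did not move as a block at 72 h. Ddit3 (CHOP), a transcription factor of prolonged stress, read 9.22, 8.77 and 8.75 in corn oil and 8.44, 8.08 and 8.00 with DEHP. Its signal fell by 40.3% with no overlap (difference -0.74 ± 0.14, adjusted p = 0.00537). Ppp1r15a (GADD34), which restores translation by dephosphorylating eIF2α, read 8.49, 8.61 and 8.63 in corn oil and 8.31, 8.13 and 8.24 with DEHP (difference -0.35 ± 0.08, adjusted p = 0.0155). Asns, the asparagine synthetase, had a larger difference with a wide spread (-0.80 ± 0.36, adjusted p = 0.202). Chac1, a glutathione-degrading enzyme, was level (0.00 ± 0.18). Trib3, a pseudokinase, read 6.94, 7.12 and 7.02 in corn oil and 7.62, 7.64 and 7.23 with DEHP. It was the only member whose 3 DEHP arrays all lay above the controls at 72 h, as they did for 10.1% of all genes, and it did not pass (0.47 ± 0.16, adjusted p = 0.098).

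**Figure D2:**
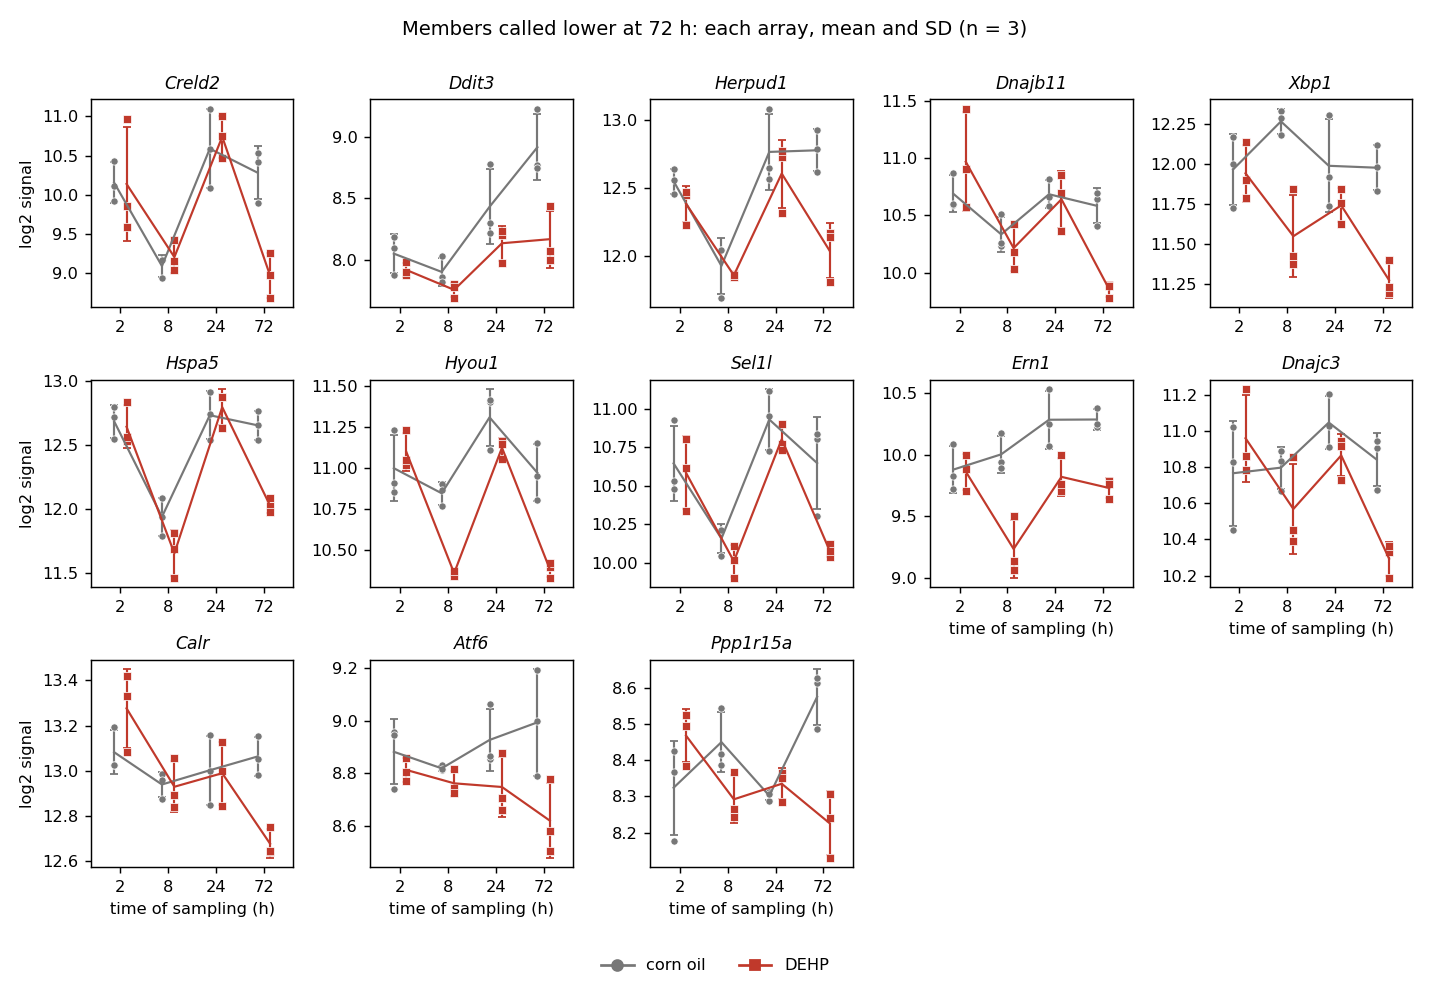
The log2 signal of each array (y axis, scale differs by panel) is plotted by time of sampling (x axis, evenly spaced categories) for the 13 genes that fell at 72 h; grey circles are corn oil, red squares DEHP, and lines join group means with SD bars (n = 3). At 72 h no red square reaches a grey circle in any panel, whereas at 24 h the groups overlap in all panels but Ern1.

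The count at 72 h depended on single arrays, and the direction did not. Leaving out corn oil 72 h replicate 2 or 3, or DEHP 72 h replicate 2 or 3, left 6, 7, 7 and 6 members that fell, while all genes that fell dropped to 0.934%, 1.1%, 0.934% and 0.769%. Without DEHP 72 h replicate 1 it was 10 members, against 2.17% of all genes. Corn oil 72 h replicate 1, with its high pancreas, immediate-early and acute phase genes, worked the other way: without it 17 members fell, against 4.42% of all genes. Without the 4 arrays high in pancreas genes 16 fell, against 4.04% of all genes. The difference stayed below 0 for 30 to 32 of 33 members in each of these fits. Hspa5, Xbp1, Ddit3, Herpud1 and Hyou1 passed in all 6 fits that left out 1 array of 72 h. Creld2 missed the threshold only without DEHP replicate 3 (adjusted p = 0.0579), and Dnajb11 in 3 of the 6, those that left out vehicle replicate 2, vehicle replicate 3 or DEHP replicate 2 (0.0602 to 0.0615). Without corn oil replicate 2 the adjusted p was 0.092 for Calr, 0.193 for Atf6, 0.121 for Dnajc3, 0.127 for Sel1l, 0.057 for Ern1 and 0.0697 for Ppp1r15a. Without corn oil replicate 3 it was 0.124, 0.0971, 0.121, 0.121, 0.0823 and 0.0689 in the same order. Without DEHP replicate 1 it was 0.0756 for Calr, 0.084 for Atf6 and 0.0893 for Dnajc3. Without DEHP replicate 2 it was 0.111 for Calr, 0.0852 for Dnajc3, 0.0908 for Sel1l, 0.086 for Ern1 and 0.0866 for Ppp1r15a. Without DEHP replicate 3 it was 0.0642 for Calr, 0.15 for Atf6, 0.075 for Dnajc3, 0.0793 for Sel1l, 0.0579 for Ern1 and 0.0542 for Ppp1r15a.

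Other lists moved at 72 h beside the 33 genes. Of 8 macrophage markers 3 fell, against 3.05% of all genes: Cd68 (-0.60 ± 0.16, adjusted p = 0.0342), Adgre1 (-0.49 ± 0.13, 0.038) and Cd5l (-0.90 ± 0.23, 0.0284). The mean of that list, relative to all 24 arrays, was 0.10 to 0.48 in corn oil and -0.41 to -0.10 with DEHP. All 7 endothelial markers had negative differences (median -0.39), as did 57.7% of all genes. Of these markers 0 passed, and 3 had an unadjusted p under 0.05 (21.6% of all genes). The acute phase genes Saa1 (-3.84 ± 0.60, adjusted p = 0.000747) and Saa2 (-3.95 ± 0.95, 0.0225) fell, with wide spreads in corn oil (SD 1.17 and 2.21). At 2 h they had gone the other way: all 9 acute phase genes had differences above 0 (median 2.30), and Saa2 rose (4.21 ± 0.95, adjusted p = 0.0344). The 8 hepatocyte markers had a median difference of -0.005 at 72 h, and 1 rose (1.13% of all genes). The part of these lists in the fall of the 33 genes was not tested.

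**Figure D3:**
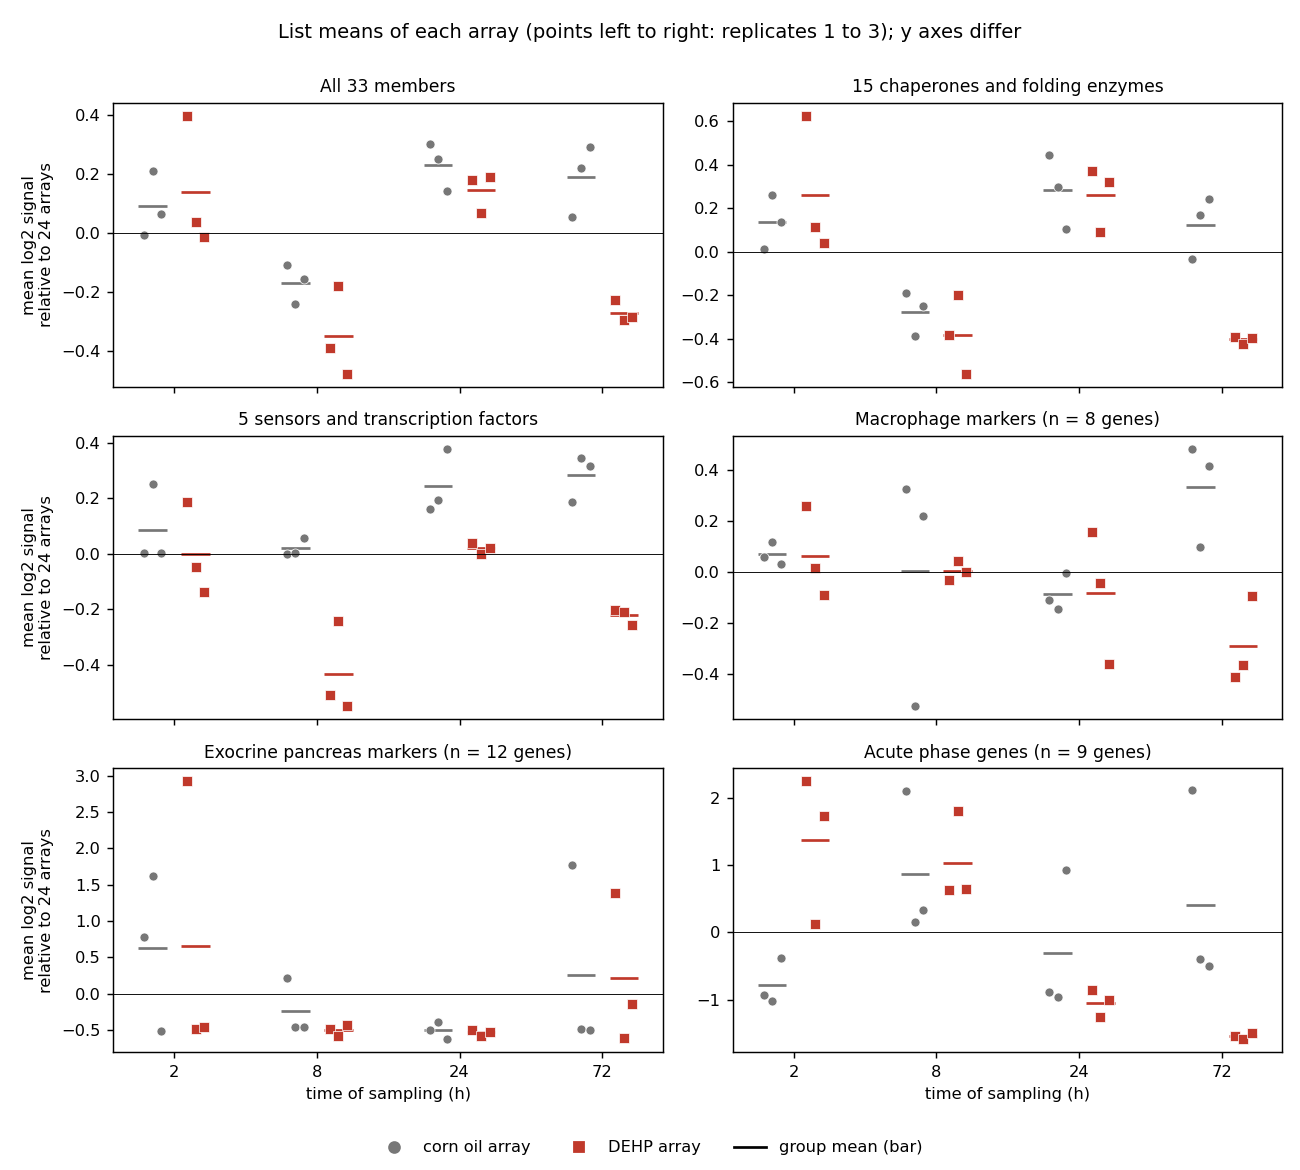
Each point is the mean log2 signal of a gene list on 1 array, relative to the mean over 24 arrays (y axis, scale differs by panel), by time of sampling (x axis), with corn oil as grey circles, DEHP as red squares, replicates 1 to 3 from left to right and a bar at the group mean. The 33 genes sit between -0.30 and -0.23 in DEHP at 72 h and between 0.05 and 0.29 in corn oil, while DEHP 2 h replicate 1 is highest both in the 33 genes (0.40) and in pancreas genes (2.92).

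At 8 h 5 members fell, against 2.86% of all genes, and 0 rose, against 1.28%. In the fit of genes above the 40th percentile of mean signal 5 fell as well, against 5.76% of those genes. The 33 genes had a median difference of -0.15 (-0.02 over all genes), and 25 differences were below 0 (57.4% of all genes). DEHP lay under corn oil on all arrays for 9 members, against 13.1% of all genes. The sensors and transcription factors held 2 of the 5 falls (median -0.45), while the chaperones held 1 of 15 (median -0.055).

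Ern1 read 9.94, 9.89 and 10.17 in corn oil and 9.059, 9.501 and 9.139 with DEHP at 8 h, and its signal fell by 41.3% (difference -0.77 ± 0.13, adjusted p = 0.000958). Xbp1 read 12.18, 12.33 and 12.29 in corn oil and 11.37, 11.84 and 11.43 with DEHP (-0.72 ± 0.14, adjusted p = 0.00388). In both genes the second DEHP replicate was the highest treated array and still lay under every control. Hyou1 read 10.90, 10.86 and 10.76 in corn oil and 10.36, 10.34 and 10.37 with DEHP (-0.49 ± 0.10, adjusted p = 0.00708). Derl2 read 11.04, 11.21 and 11.37 in corn oil and 10.55, 10.72 and 10.62 with DEHP (-0.58 ± 0.12, adjusted p = 0.00487). Its DEHP arrays were also the lower ones at 2 h (-0.42 ± 0.12, adjusted p = 0.116), where it was the only member whose DEHP arrays all lay below the controls, as they did for 6.72% of all genes. Chac1 read 7.92, 8.04 and 8.26 in corn oil and 7.48, 7.09 and 7.46 with DEHP (-0.73 ± 0.18, adjusted p = 0.0202). Chac1 alone of the 5 missed the threshold when 1 array was left out: without corn oil 8 h replicate 2 (adjusted p = 0.0581), corn oil 8 h replicate 3 (0.094) or DEHP 8 h replicate 2 (0.0891). The vehicle group at 8 h holds the array with the large Actb difference (replicate 2). With that difference as a covariate 3 of the 5 passed, against 1.07% of all genes that fell; Hyou1 (adjusted p = 0.069) and Chac1 (0.0631) did not. Ern1, Xbp1 and Hyou1 fell at both 8 h and 72 h with the probe sets used here. The share of all genes that fell at both times was not counted. Those comparisons share no arrays, but they come from 1 fit of values normalized together, and other probe sets of these genes gave other calls, as follows.

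Probe sets of a gene did not always move together. The Hyou1 probe set used here, of a type that can match several transcripts, gave -0.49 at 8 h and -0.59 at 72 h; its other 2 gave -0.02 and 0.12 at 8 h and -0.105 and -0.997 at 72 h. The 5 Ern1 probe sets ran from -0.77 to -0.01 at 8 h and from -0.56 to 0.03 at 72 h. The 4 Xbp1 probe sets gave -0.73 to -0.53 at 8 h but -0.70 to -0.07 at 72 h. The 2 Derl2 probe sets gave -0.69 and -0.58 at 8 h. The calls at both times rested on this choice. With the mean of all probe sets Ern1 did not pass at 8 h or 72 h (adjusted p = 0.14 and 0.214), Hyou1 not at 8 h (0.755) and Xbp1 not at 72 h (0.074). With the second brightest probe set Ern1 did not pass at 8 h or 72 h (0.967 and 0.0882), Hyou1 at neither time (0.978 and 0.727) and Xbp1 not at 8 h (0.0512). For Hspa5, Herpud1, Ddit3, Dnajc3, Sel1l, Calr and Atf6 every probe set was below 0 at 72 h, the smallest being -0.19 for Atf6.

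At 2 h 0 members passed, against 0.83% of all genes, and 3 had an unadjusted p under 0.05 (8.43% of all genes): Derl2, Hsp90b1 and Derl3. The median difference was 0.01, with 10 of 15 chaperones above 0. Several chaperones were highest on DEHP 2 h replicate 1, the array highest in pancreas genes. Creld2 read 10.97 on it against 9.85 and 9.59 on the other DEHP arrays, and Sdf2l1 10.84 against 9.47 and 9.22. Dnajb11 read 11.43 on it against 10.57 and 10.90. Without that array the median over the 33 genes was -0.08, and still 0 passed. At 24 h 0 members passed, against 0.297% of all genes, 3 had an unadjusted p under 0.05 (8.13% of all genes; Ern1, Chac1 and Ddit3), and the median difference was -0.06. Ern1 had the largest difference at 24 h (-0.46 ± 0.13, adjusted p = 0.241). Its DEHP arrays all lay below the controls, as did those of 1 other member (7.47% of all genes).

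Whether the DEHP effect itself differed between times was asked by an F test over the contrasts of successive effects. Of 33 members 1 passed, Hyou1 (adjusted p = 0.0308), against 2.08% of all genes, and 17 had an unadjusted p under 0.05 (15.2% of all genes). Its differences were 0.10 at 2 h, -0.49 at 8 h, -0.19 at 24 h and -0.59 at 72 h. None of the successive steps passed on its own, the smallest adjusted p being 0.0827 for the step from 2 h to 8 h. The next members were Ppp1r15a (adjusted p = 0.0535), Hspa5 (0.0707), Dnajb11 (0.0727) and Creld2 (0.0772). Creld2 had -1.31 at 72 h and differences of -0.02, 0.11 and 0.15 at 2, 8 and 24 h. For members other than Hyou1, a fall at 72 h or 8 h is therefore not shown to differ from the effect at the other times. Leaving out single arrays gave 0 to 4 members: 0 without corn oil 2 h replicate 1 or 3, corn oil 8 h replicate 2, DEHP 8 h replicate 1, corn oil 72 h replicate 2 or 3, or any DEHP 72 h replicate, and 2 to 4 without corn oil 2 h replicate 2, DEHP 2 h replicate 2, DEHP 8 h replicate 2, corn oil 24 h replicate 1 or 3 or corn oil 72 h replicate 1. Hyou1 itself did not pass in 11 of the 24 fits, which include those without DEHP 2 h replicate 1 (adjusted p = 0.085) or 3 (0.0506), where the 1 member that passed was another. The share of all genes is not given here for these fits.

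The vehicle groups had a time course of their own. In corn oil 10 of 33 members differed between times by the F test, against 3.55% of all genes: Hspa5, Ddit3, Herpud1, Dnajb9, Hyou1, Creld2, Manf, Sel1l, Syvn1 and Eif2ak3. At 8 h 7 members were lower than at 2 h (1.09% of all genes), and at 24 h 10 were higher than at 8 h (0.78% of all genes). Between 24 h and 72 h 0 passed, against 0.011% of all genes that rose and 0% that fell. In those 7 genes the signal thus dipped at 8 h and stood higher again at 24 h.

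Manf, a secreted protein of the stress response, read 11.41, 11.61 and 11.50 at 2 h, 10.59, 9.88 and 10.25 at 8 h, and 11.50, 11.70 and 11.16 at 24 h in corn oil. The step down was -1.27 ± 0.20 (adjusted p = 0.000556) and the step up 1.22 ± 0.20 (adjusted p = 0.000898). Syvn1 read 10.69, 11.18 and 10.57 at 2 h, 9.85, 9.75 and 9.79 at 8 h, and 11.67, 11.38 and 10.55 at 24 h, with steps of -1.02 and 1.40. In both genes the 8 h arrays lay under all others of the vehicle at 2 h and 24 h. Hspa5 read 12.54, 12.79 and 12.72 at 2 h, 12.08, 11.79 and 11.94 at 8 h, and 12.91, 12.75 and 12.54 at 24 h, with steps of -0.75 and 0.79. Creld2 stepped by -1.07 and 1.5, Dnajb9, a co-chaperone that restrains IRE1, by -0.94 and 1.22, Herpud1 by -0.62 and 0.84, and Eif2ak3 by -0.71 and 0.88. Sel1l, Hyou1 and Ddit3 passed on the step up alone (0.77, 0.46 and 0.53). Of the 10 genes, 6 also fell with DEHP at 72 h: Hspa5, Ddit3, Herpud1, Hyou1, Creld2 and Sel1l. Of all 33 members 13 fell at that time. Both tests use the corn oil 72 h arrays, and the share of all genes that passed both was not counted.

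The F test between corn oil times was also read without corn oil 8 h replicate 2, the array with the large Actb difference. Without it 7 of the 10 passed (1.7% of all genes), and Hyou1 (adjusted p = 0.101), Sel1l (0.0842) and Eif2ak3 (0.099) did not. With the Actb difference as a covariate 2 passed, Hspa5 (adjusted p = 0.0322) and Ddit3 (0.00481), against 0.995% of all genes. For Ddit3 a dip was not shown, as its step from 2 h to 8 h was -0.15 ± 0.14 (adjusted p = 0.701). Herpud1, Dnajb9, Creld2, Manf, Syvn1 and Eif2ak3, which had dipped, did not pass with the covariate (adjusted p 0.0663 to 0.176). This F test covers all times and is not a test of the dip alone. The mean over the 33 genes was low at 8 h in the vehicle on each of its arrays (-0.11, -0.24 and -0.16 relative to all 24 arrays). The DEHP group at 8 h was low as well, at -0.39, -0.18 and -0.48. At 24 h all 6 arrays were above 0, from 0.07 to 0.30, and at 72 h the groups parted.

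**Figure D4:**
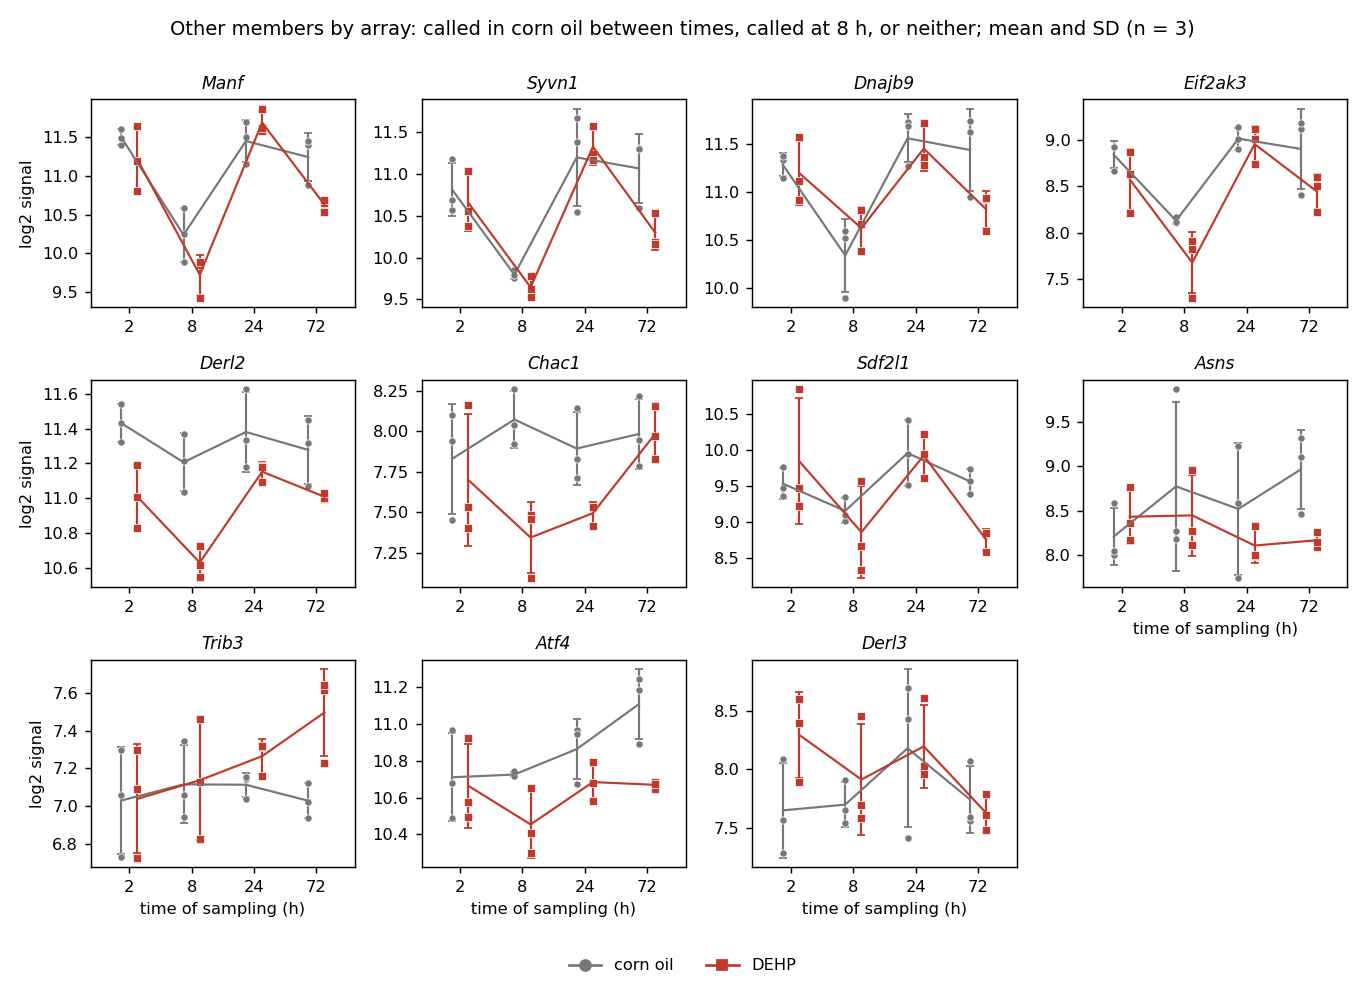
The log2 signal of each array (y axis, scale differs by panel) is plotted by time of sampling (x axis, evenly spaced categories) for 11 further genes, with corn oil as grey circles, DEHP as red squares, and group means with SD bars (n = 3). Manf, Syvn1, Dnajb9 and Eif2ak3 are low at 8 h in both treatments, Derl2 and Chac1 differ by treatment at 8 h, and Trib3 is the one panel in which DEHP lies above corn oil at 72 h.

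Genes that work beside the 33 in the endoplasmic reticulum also moved at 72 h. Of 20 genes of translocation and signal peptide cleavage 1 fell (Tram1, -0.45 ± 0.11), and all 20 differences were below 0 (median -0.295), against 57.7% of all genes. Of 18 genes of N-glycan transfer and trimming 3 fell: Rpn1, a subunit of the oligosaccharyltransferase (-0.62 ± 0.18), Mogs, which trims the first glucose (-0.39 ± 0.10), and Dpagt1, which starts the lipid-linked glycan (-0.35 ± 0.10). Of 24 other folding and disulfide enzymes 4 fell, led by Pdia5 (-0.53 ± 0.11), which had also fallen at 8 h (-0.80 ± 0.11). The other 3 were Ppib, Calu and Prdx4, between -0.42 and -0.35. Of 21 other degradation factors 4 fell, led by Ube2g2, a ubiquitin-conjugating enzyme (-0.64 ± 0.12), with Edem3, Ube2j1 and Os9 between -0.515 and -0.31. These shares stand against 3.05% of all genes.

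Among 29 other genes of the ATF4 and amino acid response 7 fell at 72 h (3.05% of all genes) and 0 rose (1.13%). Psph, the last enzyme of serine synthesis, had -0.997 ± 0.226 (adjusted p = 0.0156), Atf5, a transcription factor related to ATF4, -0.77 ± 0.17 (0.0119), Ddit4, an inhibitor of mTORC1, -0.77 ± 0.22 (0.0473), and Cars, a tRNA synthetase, -0.55 ± 0.14 (0.0294). Cebpg, Nars and Tars made up the 7. None of 14 other genes of the sensor axis fell at 72 h. Of them 8 had an unadjusted p under 0.05 (21.6% of all genes), and 11 differences were below 0 (57.7% of all genes). Creb3l3, a liver transcription factor anchored in the same membrane as ATF6, rose at 2 h (0.53 ± 0.09, adjusted p = 0.00317) and at 8 h (0.42 ± 0.09, adjusted p = 0.00791), times at which none of the 33 rose. At 8 h Fkbp2 (-0.51 ± 0.10) and Selenos (-0.55 ± 0.13) fell, and Nploc4, a cofactor of the segregase p97, rose (0.47 ± 0.11).

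Members with and without the promoter element can be set side by side at 72 h. Of the 11 with a match 6 fell (median difference -0.55), and of the 18 without one 5 fell (median -0.39). The share of all genes that fell was 3.05%. In corn oil, 4 of the 11 and 4 of the 18 differed between times, against 3.55% of all genes. Genes outside the list that hold a match were not examined. Creld2, Herpud1, Dnajb11 and Hspa5, whose windows are printed above, were among the falls, and so were Calr and Dnajc3; Canx, Hsp90b1, Pdia6, Derl3 and Syvn1 held a match and did not pass. Xbp1, Ern1, Ddit3, Ppp1r15a and Sel1l fell with no match in these windows. No test was made of this split.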

How the data were processed

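Messenger RNA of 24 liver samples was measured on Affymetrix 430 2.0 arrays of 45101 probe sets. The authors deposited log2 signals made with RMA, per the submitters' processing notes; the version is not given in the sources used here. RMA corrects background, normalizes between arrays and summarises probes, so each value depends on all arrays. Probe sets were named through GEO's platform annotation: 34958 of 35890 annotated probe sets carried 1 symbol, for 18194 genes. Where a gene had several probe sets, the one brightest on average was used.

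Groups came from the labels. One limma model (version 3.58.1, R 4.3.3) of 8 group means was fitted to all 24 arrays, with 16 residual and 6.21 prior degrees of freedom. Moderated tests and F tests were adjusted by Benjamini-Hochberg over 18194 genes, with a threshold of 0.05, and the fit was tested on simulated data. Arrays have no sequencing depth, and 3 arrays a group limit the precision. The members and lists were chosen with earlier results of these data known. Every member may be named, and of each neighbouring list up to 4 genes with the largest changes that passed, besides names that complete a short count. Same-numbered arrays of a time were not used as pairs, and the number RC14, which stands in the titles of 2 arrays at 8 h (DEHP replicate 2, corn oil replicate 3), marks arrays of unequal values. Alternatives covered normalization, choice of probe set, dim genes, variance estimation, blocks and left-out arrays. Promoter sequences and coordinates are RefSeq's, on GRCm38.p6.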

Additional observations from a re-analysis of the deposited data

Results flagged for a closer look

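Hyou1, the nucleotide exchange factor of BiP, was the 1 member of 33 whose DEHP effect differed between times (limma F test over the contrasts of successive effects, Benjamini-Hochberg adjusted p = 0.0308). By the same test 2.08% of all genes passed, so a count of 1 in 33 does not set the members apart. The effects were 0.10 at 2 h, -0.49 at 8 h, -0.19 at 24 h and -0.59 at 72 h, each with an SE of 0.10. None of the 3 successive contrasts passed on its own, the largest being the step from 2 h to 8 h (-0.59 ± 0.15, adjusted p = 0.0827). The adjusted p was 0.0697 with the mean of all its probe sets and 0.731 with its second brightest probe set. It was 0.0505 with quantile normalization and 0.0545 when the Actb difference entered as a covariate; 11 of 24 fits without 1 array also missed the threshold, with adjusted p from 0.0506 to 0.0869.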

How the results depend on the processing

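Counts of members that passed changed as follows. Shares in parentheses are of all genes that fell in the same fit. At 2 h quantile normalization gave 1 in place of 0 (0.324%), and leaving out single arrays 0 to 1. At 8 h the mean of all probe sets gave 3 in place of 5 (2.36%, against 2.86%), the second brightest probe set 2 (1.95%) and the Actb difference as a covariate 3 (1.07%); single arrays gave 4 to 5. At 24 h no single array changed the count of 0. At 72 h the second brightest probe set gave 8 in place of 13 (1.95%, against 3.05%; Calr, Atf6, Ddit3, Dnajc3, Hyou1 and Ern1 lost) and quantile normalization 8 (1.53%; Calr, Atf6, Dnajc3, Sel1l and Ppp1r15a lost); single arrays gave 6 to 17. For effects that differed between times, genes above the 40th percentile gave 2 in place of 1, the second brightest probe set 0, quantile normalization 0, median centring 2, leaving out the 4 arrays with high pancreas markers 2, and the Actb covariate 0; single arrays gave 0 to 4. For these effects 2.08% of all genes passed in the main fit, and the share is not given here for the other fits. For corn oil over time the Actb covariate gave 2 in place of 10, and single arrays 7 to 10. With that covariate 0.995% of all genes differed over time in corn oil, against 3.55% in the main fit. Fits without an array have fewer degrees of freedom, and the number of all genes that passed moved too. Why the counts changed was not tested for any setting. No member named as fallen changed sign in any setting.

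Same-numbered arrays deviated with r from -0.351 to 0.144 over 12 pairs, and 3 correlated best with their own number. These correlations cannot tell whether such arrays share more than a number. In the titles every replicate 1 array has a lower RC number than any other replicate, and what that order means is not given. With the replicate number as a block 5 members fell at 8 h (2.91% of all genes) and 13 at 72 h (3.08% of all genes). In the same fit 9 passed over time in corn oil and 1 (Hyou1, adjusted p = 0.0427) between effects, for which the shares of all genes are not given here. The difference between effects could not be refitted from the 6 arrays of 1 time. With 3 arrays a group, a difference that missed the threshold is not shown to be absent.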

Other observations

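Some members had a second probe set with another value, outside the comparisons above. Asns, whose chosen probe set gave -0.80 at 72 h, had another at -1.67. The 4 probe sets of Derl1 ran from -0.60 to 0.20 at 8 h and from -0.41 to -0.23 at 72 h. Atf4 had 3 probe sets between -0.58 and 0.06 at 8 h and between -0.60 and -0.10 at 72 h. Sel1l had 5, between -0.15 and 0.45 at 8 h but between -0.70 and -0.50 at 72 h. Both probe sets of Trib3 were above 0 at 72 h (0.45 and 0.47). These are differences of DEHP minus corn oil on the log2 scale, given as values with no test.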
